A study of Mus musculus with 20 samples.

Results

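The 35 genes described here encode the sensors of the unfolded protein response and the chaperones, disulfide isomerases and degradation factors of the endoplasmic reticulum (ER). They were taken as a list of named genes, grouped by role into 9 sensors with their transcription factors, 12 chaperones and co-chaperones, 5 protein disulfide isomerases and 9 factors of ER-associated degradation. All 35 were among the 23284 genes of the deposited table. Of these, 34 reached a log2 value of 5 in at least 4 libraries and were tested, and the sensor Ern2 stayed below 5 in every library.

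The unfolded protein response matches the folding capacity of the ER to the load of new protein. IRE1 (Ern1) splices the Xbp1 transcript, PERK (Eif2ak3) slows translation and thereby favours synthesis of ATF4, and ATF6 is cut in the Golgi to release a transcription factor. The transcription factors made in these ways bind the promoters of chaperone and degradation genes. Secretory epithelia such as those of the prostate and the seminal vesicle pass large amounts of protein through the ER even without stress, and express many of these genes at high levels.

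The binding element best known for ATF6 and XBP1 is the ER stress response element, CCAAT followed by 9 bases of any kind and CCACG. A shorter form has ATTGG, 1 base and CCACG. The promoters below are shown because they carry these elements in genes with large and intermediate differences between the groups. Xbp1 is shown as a gene with no exact match in the window searched, which does not show that the gene lacks an element. They are RefSeq sequences of build GRCm38.p6, from 250 bases before to 50 bases after the annotated start, written 5′ to 3′ on the strand of the gene. Capitals mark the outer letters of a match, and CGTGG with ATTGG is the long element read on the other strand.
Pdia6, chr12:17266339-17266638, plus strand: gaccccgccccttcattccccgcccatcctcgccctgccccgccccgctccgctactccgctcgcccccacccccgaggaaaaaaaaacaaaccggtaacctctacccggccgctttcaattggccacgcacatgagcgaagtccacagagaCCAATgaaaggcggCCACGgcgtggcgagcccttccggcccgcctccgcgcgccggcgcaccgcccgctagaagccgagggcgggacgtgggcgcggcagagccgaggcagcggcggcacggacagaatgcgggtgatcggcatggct
Creld2, chr15:88819396-88819695, plus strand: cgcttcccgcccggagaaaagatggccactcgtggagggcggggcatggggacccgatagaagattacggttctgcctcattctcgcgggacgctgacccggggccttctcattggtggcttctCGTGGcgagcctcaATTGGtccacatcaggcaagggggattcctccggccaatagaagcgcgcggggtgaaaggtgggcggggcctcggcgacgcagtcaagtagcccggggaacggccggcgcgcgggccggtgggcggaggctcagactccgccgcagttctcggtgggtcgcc
Hsp90b1, chr10:86705395-86705694, minus strand: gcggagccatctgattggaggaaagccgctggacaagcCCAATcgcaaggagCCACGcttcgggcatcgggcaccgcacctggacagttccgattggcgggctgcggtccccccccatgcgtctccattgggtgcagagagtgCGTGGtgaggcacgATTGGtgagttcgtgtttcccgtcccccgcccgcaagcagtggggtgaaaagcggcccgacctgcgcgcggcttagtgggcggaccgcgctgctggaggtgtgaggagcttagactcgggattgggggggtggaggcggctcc
Hspa5, chr2:34771840-34772139, plus strand: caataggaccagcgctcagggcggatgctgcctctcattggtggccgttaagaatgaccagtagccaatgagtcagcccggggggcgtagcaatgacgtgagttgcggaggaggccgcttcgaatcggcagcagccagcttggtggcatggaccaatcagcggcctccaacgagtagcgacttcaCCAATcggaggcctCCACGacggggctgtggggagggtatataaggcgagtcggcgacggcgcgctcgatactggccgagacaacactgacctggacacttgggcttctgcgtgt
Herpud1, chr8:94386179-94386478, plus strand: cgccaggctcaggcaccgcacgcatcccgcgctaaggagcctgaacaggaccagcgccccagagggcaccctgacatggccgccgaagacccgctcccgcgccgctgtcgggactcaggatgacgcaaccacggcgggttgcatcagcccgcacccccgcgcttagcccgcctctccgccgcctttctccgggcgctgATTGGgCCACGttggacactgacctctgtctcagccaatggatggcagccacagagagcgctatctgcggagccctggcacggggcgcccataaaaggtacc
Xbp1, chr11:5520391-5520690, plus strand: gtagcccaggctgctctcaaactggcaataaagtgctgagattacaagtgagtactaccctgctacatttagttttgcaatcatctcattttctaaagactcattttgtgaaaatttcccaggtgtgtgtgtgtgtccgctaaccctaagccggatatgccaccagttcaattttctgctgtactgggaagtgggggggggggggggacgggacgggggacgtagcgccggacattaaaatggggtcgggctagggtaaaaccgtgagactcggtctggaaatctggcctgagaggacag

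RefSeq promoters of that build were found for 30 of the 35 genes, as 31 windows of 300 bases, and were searched on both strands beside all 32851 windows of the same table. The long element was found in 39 windows, 0.119% of all, and 9 of the 39 belonged to Calr, Canx, Creld2, Derl3, Dnajc3, Hsp90b1, Hspa5, Pdia6 and Syvn1. The short form was found in 12 windows, 0.0365% of all, and Dnajb11 and Herpud1 held 2 of them. In Hspa5, which encodes the chaperone BiP, the long element began 65 bases before the start. It began 98 bases before the start in Pdia6 and 126 in Creld2, and Hsp90b1 had a pair at 212 and 107 bases. The letters TGACGTG, a core that XBP1 binds, occurred in 2.01% of all windows and in Hspa5 alone among the 30 genes. TGATGNAA, an element bound by ATF4 with its partners, occurred in 3.97% of all windows and in Chac1, Herpud1 and Trib3. A match is a description of these letters and does not show that a factor was bound.

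RNA was measured in tissue recombinants, grafts that combine an epithelium with embryonic mesenchyme. Mouse epithelium from donors aged 2 months was joined to urogenital sinus mesenchyme of Sprague Dawley rats, which induces prostate, and the grafts were collected 3 months after implantation. Every group received doxycycline in the drinking water for 3 months, per the labels, to switch on an inducible vector. The groups were prostate epithelium (PE), seminal vesicle epithelium with the construct labelled mNKX3.1, with the hairpin labelled UTY_sh, with mNKX3.1 and UTY_sh together (mNKX3.1+UTY_sh), and seminal vesicle epithelium alone (SVE), with 4 libraries each. PE and SVE are labelled as wild type for NKX3.1. What the m of mNKX3.1 means is not given, and the treatment text speaks of the wild-type protein as well as a point mutant. The labels give the mouse strain as C57Bl/6J in one field and as a hybrid of 129/SvImJ and C57Bl/6J in another. Nothing in them says whether separate grafts or hosts gave the 4 libraries, so a p-value here reflects only how far these samples vary, which may be technical. The series title names NKX3.1, a prostate transcription factor, G9a, a histone methyltransferase, and UTY, a Y-linked relative of a histone demethylase, in prostate differentiation.

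Depth, recovered from the values, was lowest in the PE libraries (about 14930000 to 20820000 reads) and the mNKX3.1 libraries (15470000 to 21860000). UTY_sh had 22520000 to 24950000, mNKX3.1+UTY_sh 24050000 to 29810000 and SVE 20260000 to 25000000. The lowest tested member, Trib3, still had about 77.7 to 373 reads in a library. Uty, the gene named by the hairpin, had log2 values of 9.16, 9.22, 9.52 and 8.98 in UTY_sh and 9.12, 9.12, 9.09 and 9.29 in mNKX3.1+UTY_sh, against 9.55, 9.27, 9.04 and 9.29 in SVE. It was higher, at 10.18, 10.13, 10.45 and 10.19 in PE and at 10.31, 10.29, 10.07 and 10.27 in mNKX3.1. Thus mNKX3.1+UTY_sh was lower than mNKX3.1 with no overlap (-1.08 ± 0.11; adjusted p = 1.37e-07 by limma), while the hairpin groups overlapped with SVE, which carries no hairpin. The hairpin groups are named only as labelled. The 50 most abundant genes held a mean of 36.7% of the summed values in PE and in mNKX3.1, against 64.6% in UTY_sh, 63.8% in mNKX3.1+UTY_sh and 63.8% in SVE. The prostate gene Pbsn, which encodes probasin, reached 14.81 in UTY_sh 3, 15.06 in mNKX3.1+UTY_sh 4 and 15.71 in SVE 1, and it was at least 17.37 in every PE library. Each mNKX3.1 library could be written as a weighted sum of PE libraries with a median gap per gene of 2.88% to 3.48%, over 7734 genes. The same procedure left 4.13% to 16.9% when a PE library was written from the other 3. Written as weighted sums of SVE libraries, UTY_sh libraries left 3.97% to 5.99% and mNKX3.1+UTY_sh libraries 4.02% to 5.65%, and an SVE library written from the other 3 left 6.79% to 14.2%. Each mNKX3.1 library was thus closer to a sum of 4 PE libraries than any PE library to a sum of the other 3, and each UTY_sh and mNKX3.1+UTY_sh library likewise with SVE. For example, mNKX3.1+UTY_sh 4 had a weight of 0.612 on SVE 1, the SVE library with most Pbsn. The stress gene Nupr1, named after its values were seen, was at 12.64 in PE 3 and 6.11 to 6.48 in the other PE libraries. It was at 11.74, 11.77 and 11.43 in mNKX3.1 1, 2 and 4, whose weights on PE 3 were 0.505, 0.438 and 0.369, and as low as in those other PE libraries in mNKX3.1 3, whose weight was 0.000227. Because Nupr1 was picked after its values were seen, it is an example and not a test of the weights. Whether libraries of different groups share material was not tested.

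Most of the folding and degradation machinery was more abundant as RNA in PE than in SVE grafts. Ern1 and Xbp1, transcripts of the IRE1 arm, were not, except with equal totals, where both were higher too. Of 34 tested members, 29 were higher in PE, 1 was lower and 4 did not pass the test, with a median log2 difference of 0.87. Over all 13456 genes tested the median was 0.02, and 31.8% were higher and 30.4% lower, 62.1% in all. Called means an adjusted p below 0.05 from limma with Benjamini-Hochberg adjustment over all genes tested. At least a 2-fold difference was reached by 15 members, and by 2120 of all 13456 genes in either direction. The libraries of the groups did not overlap for 26 members, 25 of them higher in PE, where 48.9% of all genes did not overlap. In bulk grafts, fewer cells of a type and less RNA per cell cannot be told apart.

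The split between higher and lower genes rests on how libraries are scaled. When each library was scaled to the same total instead, 10519 genes were higher and 879 lower in PE than in SVE, against 4275 and 4087 with the deposited scaling, and the median of all genes moved to 0.79. With equal totals 33 members were higher and none lower, and Chac1 was the member that did not pass. Relative to that median, 31 members lay above it and Ern1, Xbp1 and Chac1 below it. Directions below are those of the deposited scaling, relative to a median of all genes near 0.

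**Figure D1:**
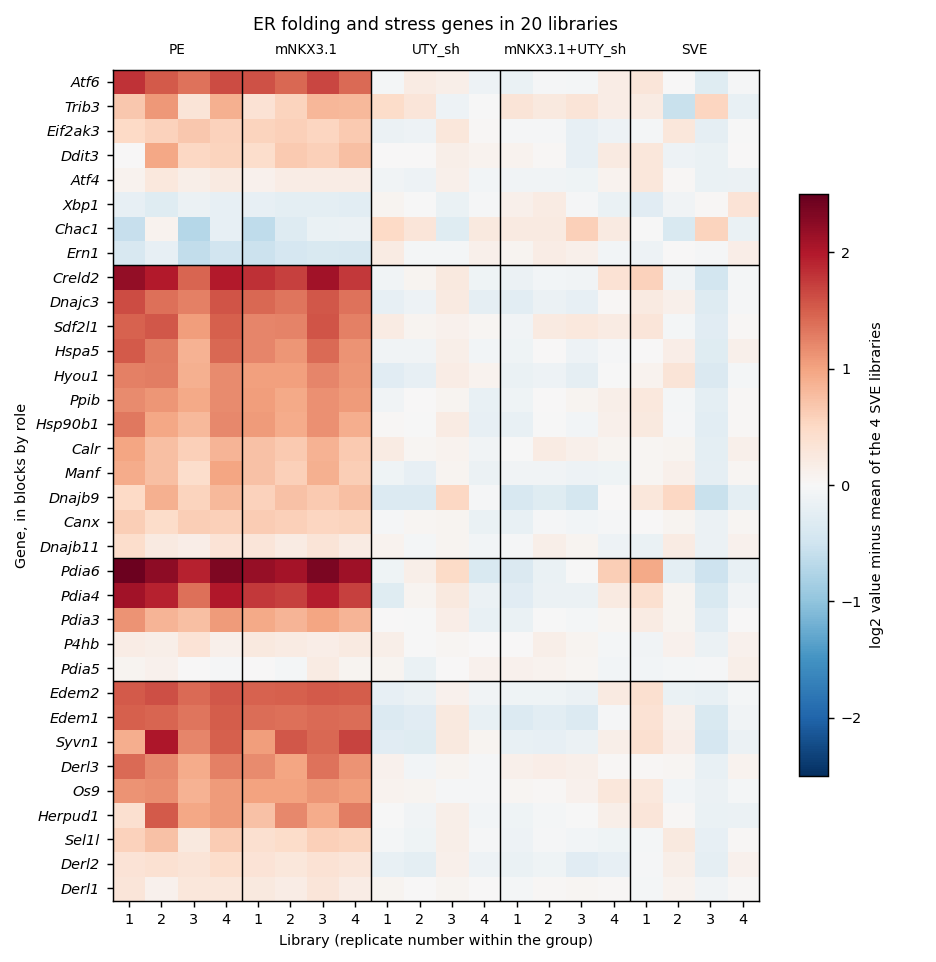
Each cell is the log2 value of 1 of the 34 tested members in 1 of the 20 libraries, minus the mean of the 4 SVE libraries, with members in blocks by role and groups side by side. The PE and mNKX3.1 columns are red for most members, most strongly Pdia6, Creld2 and Pdia4, while Ern1, Xbp1 and Chac1 are pale to blue there (with equal totals Ern1 and Xbp1 are higher in PE and in mNKX3.1). The UTY_sh, mNKX3.1+UTY_sh and SVE columns lie nearer 0 for most members. Single libraries depart from it, such as SVE 1 for Pdia6 (13.68, SVE mean 12.73), and Dnajb9 runs from 10.52 to 11.61 in SVE (mean 11.08).

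Among the sensors, the transcripts of the 3 arms did not move alike in PE against SVE. ATF6 is the arm that acts mainly on chaperone genes, and Atf6 had log2 values of 12.93, 12.67, 12.49 and 12.76 in PE, against 11.44, 11.14, 10.83 and 11.10 in SVE. In mNKX3.1 it was 12.72, 12.57, 12.81 and 12.55, in UTY_sh 11.08, 11.33, 11.27 and 10.99, and in mNKX3.1+UTY_sh 10.96, 11.10, 11.08 and 11.31. Every PE and mNKX3.1 library was thus above every library of the other groups. The difference of PE from SVE was 1.58 ± 0.12 (SE; adjusted p = 2.34e-09), or 3.00-fold.

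Ern1, the IRE1 sensor kinase and nuclease, was the member that went the other way. Its values were 11.87, 12.08, 11.67 and 11.81 in PE, against 12.16, 12.28, 12.25 and 12.44 in SVE, with no overlap. They were 11.75, 11.86, 11.91 and 11.87 in mNKX3.1, 12.49, 12.23, 12.23 and 12.40 in UTY_sh and 12.34, 12.48, 12.40 and 12.22 in mNKX3.1+UTY_sh. The difference of PE from SVE was -0.42 ± 0.08 (adjusted p = 0.00029), and with equal totals it was 0.35. Xbp1, the transcript that IRE1 splices, had 12.01, 11.91, 12.08 and 12.02 in PE, against 11.94, 12.12, 12.25 and 12.55 in SVE. These ranges overlapped and the difference of -0.21 ± 0.10 did not pass (adjusted p = 0.0744; 95% interval -0.42 to -0.0016), and with equal totals it was 0.56. Without SVE 1 it passed (-0.30; adjusted p = 0.00938). Gene-level values do not tell spliced from unspliced Xbp1. Ern2, the relative of Ern1 known from goblet cells, lay between 1.32, in an SVE library, and 3.02, in a UTY_sh library, near the floor of the scale.

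In the PERK arm 3 of the 5 members were higher in PE than in SVE, each by less than Atf6. Eif2ak3, which encodes PERK, had 10.75, 10.83, 10.94 and 10.82 in PE, against 10.21, 10.54, 10.02 and 10.24 in SVE, a difference of 0.58 ± 0.10 (adjusted p = 3.86e-05). Its effector Atf4 was 12.19 ± 0.08 in PE and 12.01 ± 0.20 in SVE (SD, n = 4 each), and the difference of 0.18 did not pass (adjusted p = 0.0654), though it did without SVE 1 (0.00246) or PE 1 (0.0461). ATF4 is controlled mainly by translation, which these data do not measure. Ddit3, which encodes the pro-apoptotic factor CHOP, had 8.13, 9.08, 8.63 and 8.66 in PE, against 8.40, 7.99, 7.94 and 8.12 in SVE. The groups overlapped through PE 1, and the difference was 0.51 ± 0.15 (adjusted p = 0.00601). Trib3, a pseudokinase gene downstream of ATF4 and CHOP, differed by 0.74 ± 0.20 (adjusted p = 0.00344), from values of 7.76, 8.17, 7.41 and 7.98 in PE and 7.29, 6.54, 7.62 and 6.91 in SVE. Chac1, which encodes an ATF4-induced enzyme that breaks down glutathione, averaged 9.88 ± 0.37 in PE and 10.24 ± 0.40 in SVE, and did not pass (-0.36, 95% interval -0.79 to 0.07; adjusted p = 0.14). Without PE 2 Chac1 passed as lower in PE (adjusted p = 0.0447), a direction that turns with equal totals. Of the 8 tested members of the role, 4 were higher, 1 was lower and 3 did not pass, with a median of 0.35. The share called, 62.5%, was near the 62.1% of all genes.

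**Figure D2:**
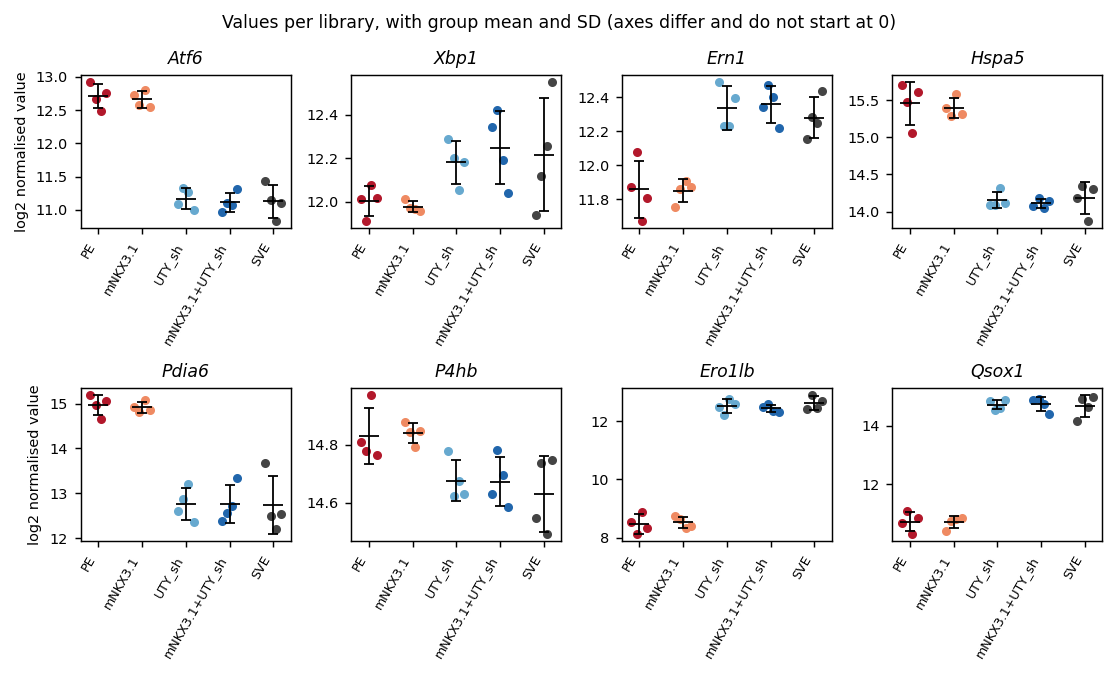
Log2 values per library (points) with group mean and SD (bars) for Atf6, Xbp1, Ern1, Hspa5, Pdia6, P4hb, Ero1lb and Qsox1 in the 5 groups of 4 libraries, each panel with its own axis. PE and mNKX3.1 lie above the other groups for Atf6, Hspa5 and Pdia6 and below them for Ern1, Ero1lb and Qsox1 (with equal totals Ern1 is higher in PE and in mNKX3.1), and P4hb spans only 14.49 to 14.97.

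All 12 chaperones and co-chaperones were higher in PE than in SVE, with a median difference of 1.09 and 7 of them at 2-fold or more. Of all 13456 genes, 31.8% were higher, and 2120 were called at 2-fold or more in either direction. Hspa5, which encodes BiP, the central ER chaperone that also holds the sensors inactive, had 15.70, 15.47, 15.05 and 15.61 in PE, against 14.18, 14.34, 13.87 and 14.31 in SVE. It had 15.39, 15.28, 15.58 and 15.31 in mNKX3.1, 14.09, 14.09, 14.32 and 14.12 in UTY_sh, and 14.07, 14.19, 14.04 and 14.14 in mNKX3.1+UTY_sh. The lowest PE library was above the highest SVE library, and the difference was 1.28 ± 0.13 (adjusted p = 1.02e-07), or 2.43-fold. With quantile normalisation the log2 difference was 2.21. Creld2, which encodes a secreted ER stress-induced protein, differed most among the chaperones. It had 12.56, 12.35, 11.83 and 12.36 in PE, against 10.95, 10.28, 9.91 and 10.33 in SVE. SVE 1 was the highest SVE library and PE 3 the lowest PE library, and the groups did not overlap. The difference was 1.91 ± 0.18 (adjusted p = 6.18e-08), or 3.75-fold.

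The partners of BiP were higher in PE by unequal amounts. Dnajc3, whose J-domain protein hands clients to BiP, differed by 1.46, from 13.83 ± 0.17 in PE and 12.37 ± 0.23 in SVE (SD, n = 4 each). Sdf2l1, which works with ER J-domain proteins, differed by 1.39, and Hyou1, a large relative of BiP that renews its nucleotide, by 1.15. The J-domain genes Dnajb9 and Dnajb11 differed by 0.69 ± 0.20 and 0.30 ± 0.08, and their PE and SVE libraries overlapped. For Dnajb9 the SVE libraries alone ran between 10.52 and 11.61. Hsp90b1, which encodes GRP94, the HSP90 of the ER, differed by 1.07, and Ppib, a prolyl isomerase gene, by 1.10. The lectin chaperones that hold glycoproteins differed less, Calr by 0.79 ± 0.10 and Canx by 0.57 ± 0.06, and Manf, which encodes a secreted factor retained by BiP, by 0.77. Each of these passed, with adjusted p between 6.55e-09 and 0.00653.

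**Figure D3:**
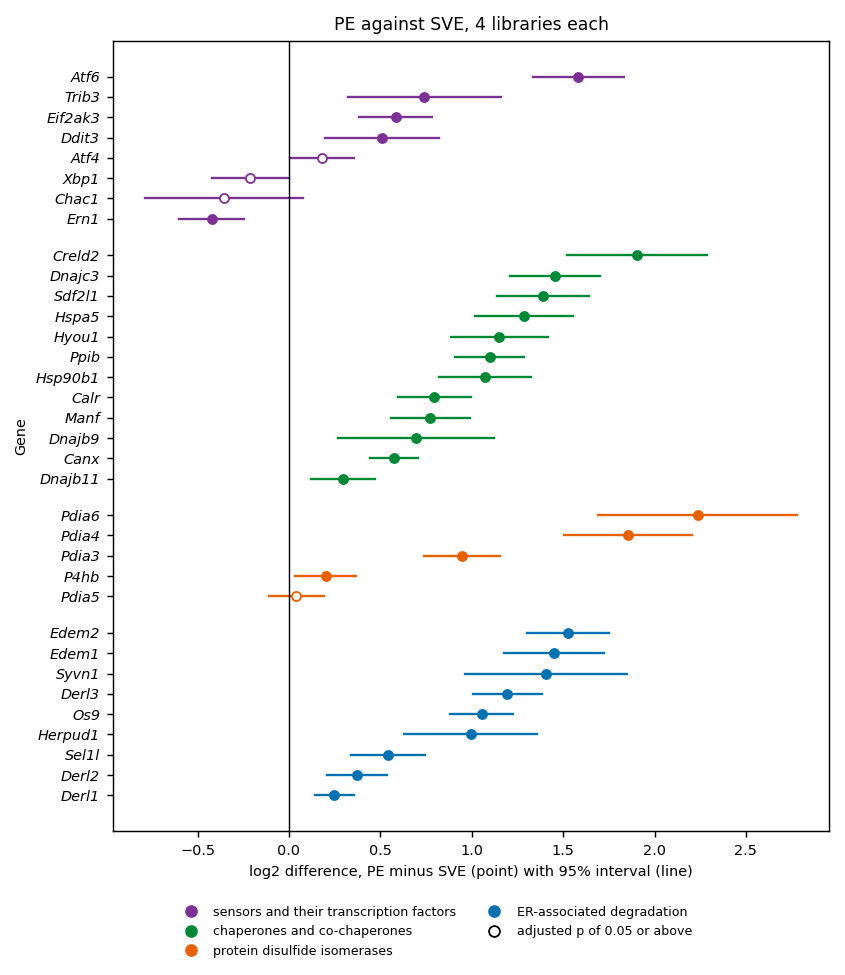
Log2 difference of PE from SVE (points) with its 95% interval (lines) for the 34 tested members, in blocks by role, from a fit to 4 libraries a group, with open points for an adjusted p of 0.05 or above. All points of the chaperone and degradation blocks lie right of 0, up to 1.91 for Creld2 and 1.53 for Edem2, Pdia6 lies farthest right at 2.24, and of the points left of 0 only Ern1 is filled (with equal totals Ern1 is higher in PE).

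The protein disulfide isomerases held both the largest difference of the set and one of the smallest. Pdia6, which encodes P5, an isomerase that binds BiP, had 15.19, 14.97, 14.66 and 15.06 in PE, against 13.68, 12.50, 12.21 and 12.55 in SVE. In mNKX3.1 it had 14.91, 14.80, 15.08 and 14.86, in UTY_sh 12.62, 12.87, 13.21 and 12.36, and in mNKX3.1+UTY_sh 12.38, 12.56, 12.72 and 13.35. The highest libraries of the seminal vesicle groups, SVE 1, UTY_sh 3 and mNKX3.1+UTY_sh 4, were those with much Pbsn, and all stayed below every PE library. Pdia6 differed by 2.24 ± 0.26 between PE and SVE (adjusted p = 6.59e-07), or 4.71-fold. Pdia4, which encodes ERp72, had 12.93, 12.76, 12.21 and 12.82 in PE, against 11.22, 10.90, 10.45 and 10.73 in SVE, a difference of 1.85 ± 0.17 (adjusted p = 2.75e-08). Pdia3, whose protein acts on glycoproteins held by calnexin and calreticulin, differed by 0.95 ± 0.10 (adjusted p = 1.83e-07).

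P4hb encodes the classical disulfide isomerase, which is also a subunit of the collagen prolyl hydroxylase. It had 14.81, 14.78, 14.97 and 14.76 in PE, against 14.55, 14.74, 14.49 and 14.75 in SVE. The lowest PE library was just above the highest SVE library, and the difference of 0.20 ± 0.08 (adjusted p = 0.0342) did not pass without PE 3 (adjusted p = 0.0967), without SVE 1 (0.0834), without SVE 3 (0.114) or with the PE and SVE libraries alone (0.183). With quantile normalisation it was 0.71 and passed. Pdia5, a less abundant isomerase gene, was at 8.61 ± 0.06 in PE and 8.57 ± 0.10 in SVE (SD, n = 4 each), a difference of 0.04 with a 95% interval of -0.11 to 0.19 (adjusted p = 0.635).

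Per kilobase of the longest coding transcript, the order of abundance also differed between the groups. Levels here are mean antilogged values divided by transcript length. Pdia6 was the most abundant member in PE at 14867 per kilobase, and it ranked 6 of 35 in SVE at 3402. P4hb ranked 1 in SVE at 8891 and 4 in PE at 10199. Hspa5 had 12456 per kilobase in PE and 5083 in SVE, and Calr had 10797 in PE and 6229 in SVE. Trib3 was the lowest tested member, at 114 in PE and 69.8 in SVE.

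All 9 factors of ER-associated degradation, which returns misfolded proteins to the cytosol for destruction, were higher in PE than in SVE, with a median difference of 1.05. Of all genes, 31.8% were higher. Edem2 and Edem1, which encode mannosidase-like proteins that mark misfolded glycoproteins, differed by 1.53 ± 0.11 and 1.45 ± 0.13 (adjusted p = 1.06e-09 and 2.75e-08). Edem2 had 12.30, 12.37, 12.18 and 12.31 in PE, against 11.16, 10.60, 10.58 and 10.72 in SVE. The PE libraries lay close together and all above SVE 1, the highest SVE library. Syvn1, which encodes HRD1, the ubiquitin ligase of the pathway, had 11.97, 13.09, 12.28 and 12.56 in PE, against 11.48, 11.23, 10.64 and 10.92 in SVE. PE 2 was the highest and PE 1 the lowest of its group, and the difference was 1.41 ± 0.21 (adjusted p = 1.41e-05). Herpud1, which encodes a membrane scaffold of that ligase, had 12.76, 13.88, 13.32 and 13.42 in PE, against 12.64, 12.37, 12.17 and 12.20 in SVE. The same PE libraries were its extremes, and the difference was 0.99 ± 0.17 (adjusted p = 7e-05).

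Os9, whose lectin brings glycoproteins to the ligase, differed by 1.05 ± 0.08, from 12.98 ± 0.14 in PE and 11.93 ± 0.18 in SVE (SD, n = 4 each). Sel1l, the partner of HRD1, differed by 0.54 ± 0.10. The 3 derlin genes, which encode proteins of the channel, were unequal. Derl3, the form most tied to secretory cells, differed by 1.20 ± 0.09, with 12.05, 11.83, 11.56 and 11.89 in PE against 10.66, 10.70, 10.46 and 10.73 in SVE. Derl2 and Derl1 differed by 0.37 ± 0.08 and 0.25 ± 0.05. All 5 passed, with adjusted p between 2.38e-09 and 0.000449, and none overlapped between PE and SVE, where 48.9% of all genes did not overlap.

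The wider ER gene lists moved less evenly between PE and SVE. Of 18 other folding and glycoprotein quality control genes, 11 were higher and 1 lower, with a median of 0.33. The share called, 66.7%, was near the 62.1% of all genes. They included Uggt1, which encodes the sensor of misfolded glycoproteins (1.22), Sil1, an exchange factor of BiP (1.11), and Fkbp11, a prolyl isomerase gene of secretory cells (2.14). Of 21 other degradation genes tested from 23 listed, 13 were higher and 4 lower, with a median of 0.26 and 81% called. Erlin2, of a membrane scaffold, and Erlec1, a lectin gene, were higher by 0.58 and 0.86, while Edem3, the third mannosidase gene beside Edem1 and Edem2, was lower by a log2 difference of -1.20 ± 0.09 (adjusted p = 2.44e-09). Of 24 other genes of the PERK and ATF4 response, 10 were higher and 5 lower, with a median of 0.18, and the share called (62.5%) was near that of all genes (62.1%). The 3 with the smallest p were lower in PE. They were Ppp1r15b, which encodes a subunit of the phosphatase that reverses PERK's mark (-0.97), and the serine and glycine genes Psat1 (-1.10) and Shmt2 (-1.22). Of 16 other regulators tested, 6 were higher and 3 lower, with a median of 0.15, and the share called was 56.2%, beside 62.1% of all genes. Among those higher in PE were Mbtps1, which encodes the protease that first cuts ATF6 (1.14), Tmbim6 (0.70), and Creb3l4, an ATF6-related factor known from human prostate (2.36). Edem3, Ppp1r15b, Psat1 and Shmt2 stayed lower with equal totals, at -0.42, -0.20, -0.32 and -0.45. In the cytosolic heat shock list, 7 of 10 genes were higher and none lower, with a median of 0.50. The share called there was 70%, beside 62.1% of all genes.

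**Figure D4:**
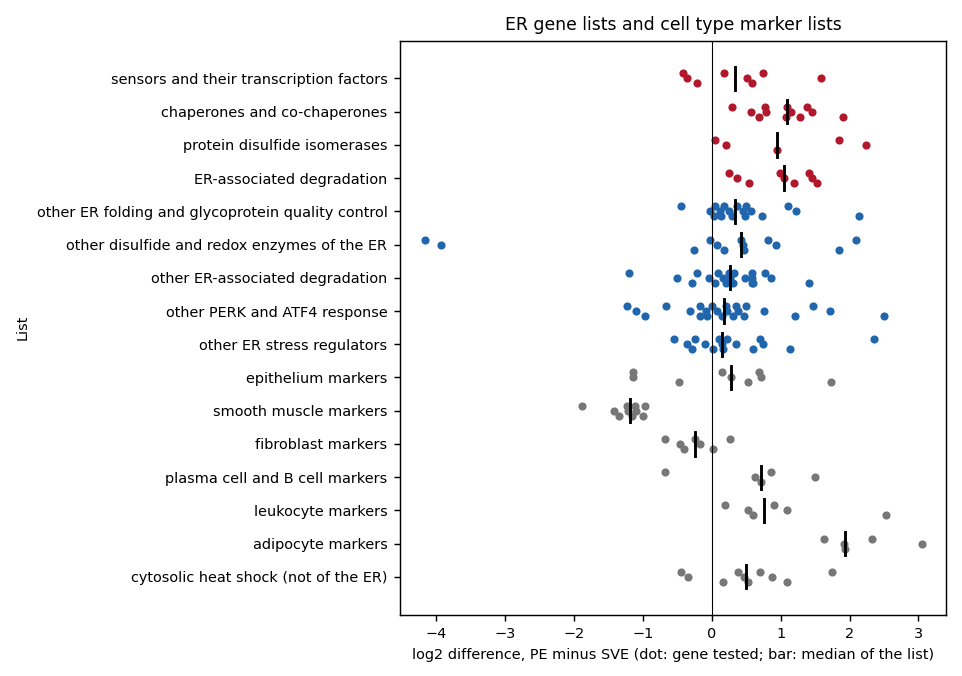
Log2 difference of PE from SVE for each tested gene (dots) and the median (bar) of each list, with the members by role in red, other ER lists in blue and other lists in grey. The medians of the chaperones (1.09), disulfide isomerases (0.95) and degradation members (1.05) lie right of those of the other ER lists (0.15 to 0.42), and the smooth muscle list lies at -1.18 (with equal totals 3 of its 10 genes are lower and none higher).

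The oxidative folding list held the largest opposite pair. Ero1lb, which encodes an oxidase that recharges disulfide isomerases, had 8.53, 8.11, 8.89 and 8.34 in PE, against 12.43, 12.91, 12.46 and 12.71 in SVE. Qsox1, which encodes a sulfhydryl oxidase known from rat seminal vesicle, had 10.68, 11.09, 10.30 and 10.87 in PE, against 14.14, 14.92, 14.63 and 14.97 in SVE. Neither overlapped, and the differences were -4.16 ± 0.15 and -3.93 ± 0.18 (adjusted p = 1.49e-13 and 3.16e-12), and -3.39 and -3.15 with equal totals. In mNKX3.1+UTY_sh both genes were at SVE levels, 12.50, 12.60, 12.37 and 12.33 for Ero1lb. Dnajc10, which encodes a reductase that opens disulfides for degradation, was higher in PE by 1.85 ± 0.14 (adjusted p = 2.59e-09), with 16.06, 15.78, 15.80 and 15.92 in PE against 14.39, 14.09, 13.70 and 13.97 in SVE. Of the 13 genes, 8 were higher, 3 lower and 2 did not pass, a share called of 84.6% beside 62.1% of all genes. Bhlha15, which encodes MIST1, a regulator of secretory cell structure, was at 12.36 ± 0.41 in PE and 12.90 ± 0.26 in SVE (SD, n = 4 each), a difference of -0.54 (adjusted p = 0.00994) that was 0.23 with equal totals.

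Markers of other cell types also differed between PE and SVE, and their part in these results was not tested. Of all 13456 genes tested, 31.8% were higher and 30.4% lower in PE, 62.1% in all. With equal totals 10519 were higher and 879 lower. Shares called were 100% of smooth muscle, epithelium and adipocyte markers, 42.9% of fibroblast, 33.3% of leukocyte and 20% of plasma cell and B cell markers. All 10 smooth muscle markers were lower in PE, and their summed antilogged level was 52409 to 72545 in PE and 105391 to 172507 in SVE. With equal totals 3 of the 10 were lower in PE and none higher. Of 9 epithelium markers, 6 were higher and 3 (Krt5, Krt14 and Trp63) lower, with sums of 33322 to 37997 in PE and 20734 to 26805 in SVE. With equal totals those 6 were higher, Trp63 was lower (-0.37), and Krt5 (0.30) and Krt14 (-0.37) did not pass. Of 7 fibroblast markers, 3 were lower in PE and 4 did not pass, with sums of 12314 to 14914 in PE and 14229 to 20099 in SVE. With equal totals 3 fibroblast markers were higher in PE and none lower. All 5 tested adipocyte markers were higher in PE, but their sums were small, 878 to 2104 in PE and 112 to 1003 in SVE. Of 6 leukocyte markers tested, 2 were higher in PE, with sums of 1769 to 15721 in PE and 2208 to 2809 in SVE. With equal totals Ptprc, Cd68, Csf1r, Lyz2 and Emr1 passed as higher in PE, and Itgam did not pass. Plasma cells also carry much ER. Of their 11 markers with those of B cells, 10 were in the table and 5 were tested, and Tnfrsf17 stayed below 5 in every library. Only Prdm1 passed, lower in PE. With equal totals Igj (2.28), Pou2af1 (1.63), Cd79b (1.49) and Irf4 (1.40) passed as higher in PE. Prdm1 was then at 0.09 and did not pass. In mNKX3.1 against SVE, with the deposited scaling, 3 of the 5 were higher and 1 was lower, beside 31.7% and 30.6% of all genes. The sums of the plasma cell and B cell list were 429 to 2554 in PE and 423 to 805 in SVE. The 12 chaperones summed to 125634 to 172485 in PE and 59505 to 78408 in SVE. A sum of marker levels does not show how much chaperone RNA the marked cells held, which was not tested. Reads from the rat mesenchyme that match a mouse gene cannot be told apart from mouse reads.

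Together the members held 1.99% ± 0.18 of the summed antilogged values in PE, 1.93% ± 0.08 in mNKX3.1, 0.585% ± 0.038 in UTY_sh, 0.591% ± 0.072 in mNKX3.1+UTY_sh and 0.602% ± 0.106 in SVE (SD, n = 4 each). A few secretory genes take most of the sum in seminal vesicle type libraries. Without the 50 most abundant genes, 4 of them members, the shares were 1.76% in PE, 1.72% in mNKX3.1, 0.965% in UTY_sh, 0.944% in mNKX3.1+UTY_sh and 0.976% in SVE.

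In the mNKX3.1 libraries the tested members had log2 differences from PE of at most 0.101 in size. Against SVE, 29 were higher and 2, Ern1 and Xbp1, lower (both higher with equal totals), where 62.3% of all genes were called, 31.7% higher and 30.6% lower. Xbp1 passed narrowly (-0.24 ± 0.10; adjusted p = 0.0449) and did not pass without SVE 3, without SVE 4 or without any 1 of the mNKX3.1 libraries (adjusted p 0.0592 to 0.206). The calls of P4hb and Dnajb11 were also lost without some libraries, SVE 1 and SVE 3 for both genes, and mNKX3.1 1 and 4 for P4hb (adjusted p 0.0512 to 0.0923). Pdia6 differed by 2.18, Creld2 by 1.85, Atf6 by 1.53 and Hspa5 by 1.21. Against PE, no member and no gene was called by limma, and the member with the widest interval was Pdia6, at -0.05 with a 95% interval of -0.60 to 0.49. At an unadjusted p below 0.05 there were 0 members and 65 genes, 0.483% of those tested. With independent libraries and no difference, a share of about 0.05 is the average by chance. The share here was far below that, so these p-values may not be calibrated. The spread of each gene was estimated over all 20 libraries. The p-values of PE against SVE therefore also draw on the groups that were close to weighted sums. A p that misses the threshold does not show that the groups are alike. The comparisons with SVE share the SVE libraries.

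The hairpin was compared without and with the construct. In UTY_sh against SVE no member and no gene was called by limma, and 0 members and 316 genes, 2.35%, had an unadjusted p below 0.05. The largest member difference was 0.18 in size, and the 95% intervals of the members ran between -0.51 and 0.61. In mNKX3.1+UTY_sh against SVE and against UTY_sh no member and no gene was called either, with 557 genes (4.14%) and 217 genes (1.61%) at an unadjusted p below 0.05. Among members that count was 1, Derl2 at -0.19 in mNKX3.1+UTY_sh against SVE, and 0 against UTY_sh. The shares of all genes in these comparisons were also below the 0.05 that chance gives on average, so the same caution holds.

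In mNKX3.1+UTY_sh against mNKX3.1 the direction of the set was the opposite of that in PE against SVE. Of 34 members, 28 were lower, 3 higher and 3 not called, with a median of -0.94, where 63.8% of all genes were called, 31.4% higher and 32.4% lower. All 12 chaperones and all 9 degradation factors were lower, and so were 3 of the 5 disulfide isomerases. Pdia6 differed by -2.16 ± 0.26 (adjusted p = 9.78e-07), Pdia4 by -1.87, Creld2 by -1.84, Edem1 by -1.64, Dnajc3 by -1.57 and Atf6 by -1.55. The 3 higher were Ern1 (0.51), Xbp1 (0.27; adjusted p = 0.0242) and Chac1 (0.63; adjusted p = 0.0118), and with equal totals these were -0.27, -0.51 and -0.14. Trib3, Pdia5 and P4hb did not pass, in this fit. P4hb, at -0.17, passed without mNKX3.1+UTY_sh 2 (adjusted p = 0.0476), with array weights (0.0144), with no variance trend (0.0381), and with quantile normalisation and equal totals, where it was -0.76 and -0.95. Trib3, at -0.37, passed with array weights (0.0243), with the compared groups alone (0.0138) and with equal totals, where it was -1.14. Xbp1 did not pass without mNKX3.1+UTY_sh 1 (0.068) or 2 (0.0876), nor Dnajb11 without mNKX3.1+UTY_sh 4 (0.0617). Atf4, lower by a log2 difference of -0.22, did not pass without any 1 of mNKX3.1 2, 3 and 4 or mNKX3.1+UTY_sh 1, 2 and 3 (adjusted p 0.0542 to 0.0695). Libraries did not overlap for 33 of 34 members, beside 61.9% of all genes, and Pdia5 was the exception. With the PE libraries in place of mNKX3.1, 3 members were higher and 29 lower. The difference of mNKX3.1+UTY_sh from mNKX3.1 minus that of UTY_sh from SVE was called for 27 members. Of these, 1 was higher (Ern1, lower with equal totals) and 26 were lower, where 24% of all genes were called in each direction, 48.1% in all. Whether the hairpin made this difference was not tested.

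The comparison of mNKX3.1+UTY_sh with mNKX3.1 and that of PE with SVE have no library in common. However, the mNKX3.1 libraries were close to weighted sums of PE libraries and the mNKX3.1+UTY_sh libraries to weighted sums of SVE libraries, so the 2 are not given as independent of each other. All 34 members had opposite signs in the 2 comparisons, and 28 were called in both, all with opposite sign. Over all genes tested, 91.6% had opposite signs, and all 7444 genes called in both had opposite signs, so this is not particular to the members. Sizes differed by a median of 0.07 for the members and 0.09 for all genes, and among members by at most 0.37, for Trib3. The members with matched promoter elements and those without were spread over the range. The 11 tested members with a long or short element had a median of 1.20 in PE against SVE, between 0.30 for Dnajb11 and 2.24 for Pdia6. The 19 with a searched promoter and no match had a median of 0.58, between -0.42 for Ern1 and 1.85 for Pdia4, so large differences occurred without a match. These medians are a description of a set that was known to hold such elements.

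**Figure D5:**
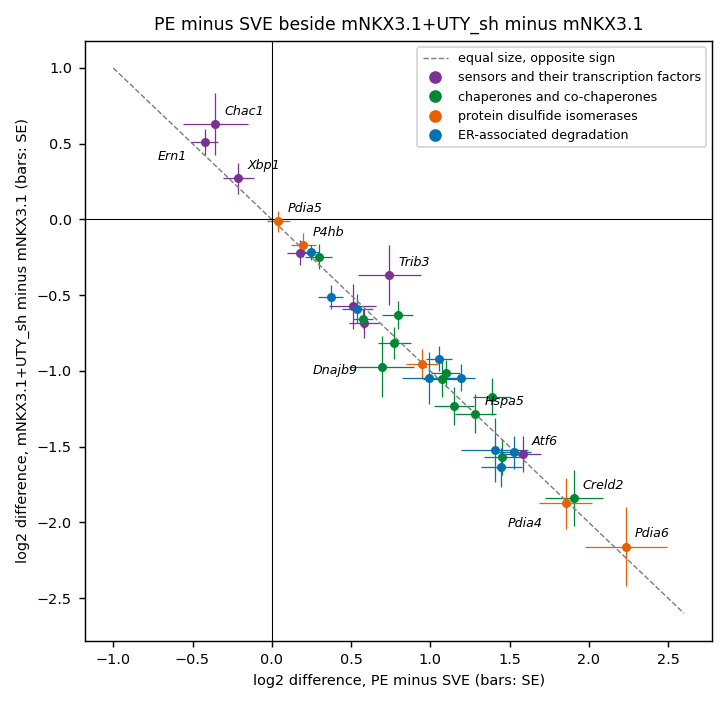
Each point is 1 of the 34 tested members, with its log2 difference of PE from SVE on the x axis and of mNKX3.1+UTY_sh from mNKX3.1 on the y axis, bars for the SE and colours for the role. The points follow the dashed line of equal size and opposite sign, with Pdia6 at 2.24 and -2.16, Pdia5 near 0, and Ern1, Xbp1 and Chac1 on the left (with equal totals these 3 have the opposite signs).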

How the data were processed

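Poly-A RNA of 20 libraries in 5 groups of 4 was sequenced, per the labels' protocols, after TruSeq library preparation. Per the submitters' processing notes, the tools were TopHat2 2.0.4, Cufflinks 2.0.2, bcl2fastq 1.8.4 and DESeq, with genome mm9. The annotation, the order of steps, strand use and how rat reads were handled are not stated in the labels. The authors deposited 1 log2 value per gene and library, already scaled between libraries and compressed near a floor, so low genes' differences are understated. Depth was read from the values. Between log2 values of 11 and 13, antilogs less a fitted offset were whole multiples of a fitted step for 100% of values (within 0.1). The step was taken as 1 read. The offset was not taken off for the read numbers, which are therefore approximate.

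From these values limma 3.58.1 (R 4.3.3) estimated a mean per group over the 20 libraries together, using a variance trend and Benjamini-Hochberg adjustment over the 13456 genes with a value of at least 5 in at least 4 libraries. An adjusted p below 0.05 was called. No pseudocount was added and no count test was run, because whole reads could not be recovered at low values. All members are named. Of each other ER list the up to 3 called genes with the smallest p in PE against SVE are named, with Creb3l4 and Bhlha15. The members and the 18 lists were chosen with earlier results of these data known. The script was tested on simulated data. Other scalings, filters, floors, weights, fits of the compared groups alone and leaving out libraries were tried. Transcript lengths came from GENCODE on GRCm38. Libraries were numbered within groups only to name them.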

Additional observations from a re-analysis of the deposited data

Results flagged for a closer look

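Among 175 groups of 4 values, 35 genes in 5 groups, 11 held 1 library that stood far from the other 3 by Dixon's ratio, and chance flags about 1 in 20 groups. In mNKX3.1+UTY_sh 4, a library with much Pbsn, the values of Atf4 (12.10, others at most 11.93), Creld2 (10.73, others at most 10.29), Syvn1 (11.22, others at most 10.92) and Edem2 (10.99, others at most 10.66) stood high. In PE 2, Canx (13.12, others at least 13.26) and Derl1 (10.68, others at least 10.85) stood low. The other values were Atf4 at 12.12 in mNKX3.1 1, low beside 12.20 to 12.21, Sdf2l1 at 12.00 in mNKX3.1 3, Hspa5 at 14.32 in UTY_sh 3, Chac1 at 10.83 in mNKX3.1+UTY_sh 3 and Pdia5 at 8.72 in SVE 4, all 4 of these high.

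The difference mNKX3.1+UTY_sh minus mNKX3.1 was unlike the difference UTY_sh minus SVE for 27 members, by limma's test of the difference of differences on the log2 scale. Over all genes 48.1% were called, 24% in each direction. The difference of differences was 0.45 for Ern1, and -0.30 with equal totals. Among sensors it was -1.59 for Atf6, -0.69 for Eif2ak3 and -0.64 for Ddit3. Among chaperones it was -1.87 for Creld2, -1.49 for Dnajc3, -1.28 for Sdf2l1, -1.26 for Hspa5, -1.18 for Hyou1, -1.06 for Hsp90b1, -0.97 for Ppib, -0.92 for Dnajb9, -0.72 for Manf, -0.70 for Calr and -0.63 for Canx. For disulfide isomerases it was -2.19 for Pdia6, -1.85 for Pdia4 and -0.95 for Pdia3. In the degradation role it was -1.49 for Edem1, -1.46 for Edem2, -1.45 for Syvn1, -1.06 for Derl3, -1.04 for Herpud1, -0.94 for Os9, -0.58 for Sel1l, -0.40 for Derl2 and -0.26 for Derl1. The term rests on all 4 groups of seminal vesicle epithelium, of which the mNKX3.1 libraries were close to weighted sums of PE libraries, and the UTY_sh and mNKX3.1+UTY_sh libraries to weighted sums of SVE libraries.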

How the results depend on the processing

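No paired analysis was possible because each library carries its own code in the labels and no replicate number is shared across groups. The equal-totals scaling and the exchange of mNKX3.1 for PE libraries were chosen after seeing the data. Directions of called members held under every alternative tried except equal totals. With equal totals Ern1 was 0.35 in PE against SVE, 0.35 in mNKX3.1 against SVE, -0.27 in mNKX3.1+UTY_sh against mNKX3.1 and -0.30 in the difference of differences. Xbp1 was 0.56, 0.54, -0.51 and -0.45 in the same order, and Chac1 was -0.14 in mNKX3.1+UTY_sh against mNKX3.1. The median of all genes was then 0.79, 0.80, -0.79 and -0.77, and the smaller count of members was 0 in each of the 4. Members lower in PE against SVE numbered 2 with quantile normalisation, with array weights and without the 3 libraries rich in Pbsn, the second being Xbp1. Members lower in mNKX3.1 against SVE numbered 1 with median rescaling, with no filter, with no variance trend and with the compared groups alone, Xbp1 being lost. Members with a higher difference of differences numbered 2 with quantile normalisation, array weights and without the libraries rich in Pbsn. Members lower in mNKX3.1 against PE numbered 1 with array weights, Manf at -0.27 (adjusted p = 0.0182). Leaving out 1 library at a time gave 28 to 30 higher and 1 to 2 lower in PE against SVE (2 without SVE 1, with Xbp1, or PE 2, with Chac1), 27 to 29 and 1 to 2 in mNKX3.1 against SVE, 2 to 3 and 27 to 28 in mNKX3.1+UTY_sh against mNKX3.1, and 1 to 2 (2 without SVE 1 or mNKX3.1+UTY_sh 4) and 26 to 27 for the difference of differences. Other comparisons kept 0. Depth limits the lowest members most, and the log scale understates differences near its floor.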
